A study of Mus musculus with 20 samples.

Results

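Kit, the receptor tyrosine kinase of oocytes, and 8 genes of its signalling route were followed in the ovaries of mice lacking the oocyte transcription factors FIGLA or LHX8. The 9 genes were Kit, its ligand Kitl, and Foxo3, Akt1, Pdpk1, Tsc1, Tsc2, Cdkn1b and Pik3ca. They were chosen by name as a pathway, with earlier results of these data known, and all 9 were found by symbol among the 49585 genes counted in each library.

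KIT ligand made by pregranulosa cells binds KIT on the oocyte surface and activates PI3-kinase. PDPK1 and AKT1 then act downstream, AKT phosphorylation moves FOXO3 out of the oocyte nucleus, and the TSC1-TSC2 complex restrains mTORC1. In mice, loss of Foxo3, Tsc1 or Tsc2 from oocytes, or of Cdkn1b, sets the dormant primordial follicles growing too early, while KIT is also needed by the primordial germ cells that precede them.

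Whole ovaries of B6D2F1 mice were sequenced as 20 libraries in 6 groups: Lhx8-/- ovaries at postnatal day 0 (P0) against Lhx8+/- controls, named WT in the library names, with 3 libraries each; Figla-/- against Figla+/- ovaries at P0, with 3 libraries each; and Figla-/- against Figla+/- ovaries at embryonic day 18.5 (E18.5), with 4 libraries each. Group membership was taken from the library names, although the titles and genotype fields put 6 of the 14 Figla libraries and 6 of the 6 Lhx8 libraries in the opposite group. Neither the alleles nor the number of animals behind a library is stated in the labels, and p-values therefore reflect sample-to-sample spread that can be technical in part. Assigned counts per library were 8297204 to 9978350 in the Lhx8 set, made with a 3' end kit, and 5583392 to 13408022 in the Figla set, made from whole transcripts. At E18.5, replicates 1 and 2 of the knockout group and replicates 1 and 2 of the control group differed little beyond sampling noise (chi-square per degree of freedom 1.32 for the knockout pair and 1.12 for the control pair, 6.62 to 62.3 for the other 22 pairs), so each pair was summed, named replicate 1-2 and counted as 1 sample, leaving 3 samples in every group.

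The targeted transcripts followed the library names, with 1 exception. Levels are given as CPM, counts scaled to equal library depth with TMM factors within each set. Lhx8 was at 17.0, 30.5 and 23.7 CPM in Lhx8 knockouts and at 93.9, 103 and 90.4 CPM in their controls; which part of Lhx8 the allele lacks is not given, so this 3' level is a limited check. Figla was at 0.183, 0.637 and 0.3 CPM in P0 Figla knockouts and at 32.8, 36.8 and 41.4 CPM in P0 controls. At E18.5, Figla was at 0.828, 1.26 and 1.53 CPM in the knockouts and at 21.9, 3.78 and 26.7 CPM in the controls. The library labelled E18.5 control replicate 3 thus stood closer to the knockouts than the other controls did, and its title calls it a knockout, so E18.5 differences are also given without it. Its Figla level still lay above that of every E18.5 knockout. Lhx8 was low in both E18.5 samples numbered 3, at 6.18 CPM in the control and 6.61 CPM in the knockout. The other E18.5 knockouts held 17.8 and 43.9 Lhx8 CPM and the other controls 94.3 and 119 CPM. Replicate 1-2 stood apart in both E18.5 groups, with stroma markers summing to 2080 CPM in the knockout sample and 1762 CPM in the control sample, against 4060 to 4848 CPM in the other 4.

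Kit transcripts fell in both knockouts at P0, more than any other of the 9 genes. Kit (ENSMUSG00000005672) lies on the plus strand at chr5:75574916-75656722 of GRCm38, the build of the deposited counts. In Lhx8 knockouts it was at 17.0, 34.3 and 23.9 CPM, against 170, 207 and 158 CPM in their controls. The P0 Figla knockouts held 46.8, 54.5 and 96.7 CPM, against 589, 770 and 1152 CPM in controls. Every knockout sample lay below every control sample in both sets. The log2 fold change, knockout over control, was -2.83 ± 0.24 in the Lhx8 set (SE, n = 3 each; 7.11-fold lower; edgeR quasi-likelihood test, Benjamini-Hochberg adjusted p = 8.37e-05) and -3.66 ± 0.31 in the Figla set (12.7-fold lower; edgeR adjusted p = 2.76e-05). In a model of both sets, which were made with different kits, the knockouts' effects on Kit differed by 0.83 ± 0.41 on the log2 scale, Lhx8 minus Figla, with an edgeR adjusted p of 0.642, which does not show that the effects are alike; with no filter on low counts the same difference of 0.83 ± 0.21 passed (edgeR adjusted p = 0.0129). In whole ovaries, fewer cells of a type and less RNA per cell cannot be told apart.

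**Figure D1:**
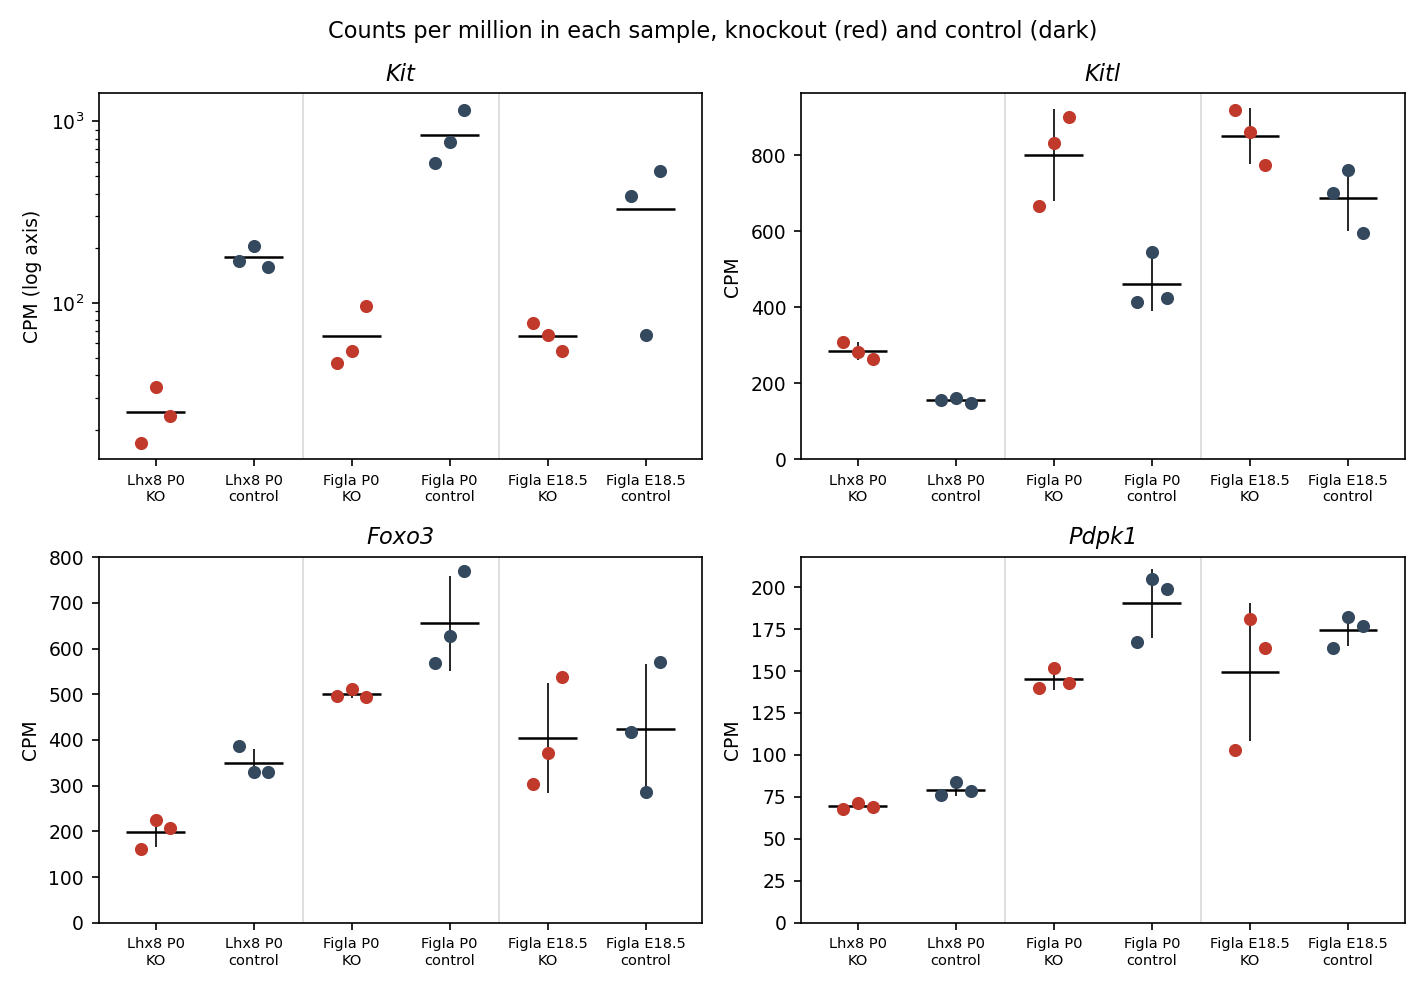
CPM of Kit, Kitl, Foxo3 and Pdpk1 (vertical axes, logarithmic for Kit) in each sample of the 6 groups, knockouts in red and controls in dark; horizontal lines are group means and vertical lines ± 1 SD (not drawn for Kit). Kit was at 17.0 to 34.3 CPM in Lhx8 knockouts and 158 to 207 CPM in their controls, and E18.5 control replicate 3 lay at 66.5 CPM, level with the knockouts.

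At E18.5 the knockout samples held 77.3, 66.4 and 54.0 Kit CPM, and the controls 388, 66.5 and 535 CPM. Control replicate 3, the library with low Figla, lay within the knockout range, so the groups overlapped. The log2 fold change was -2.29 ± 0.63 (n = 3 each; unadjusted p = 0.00692, edgeR adjusted p = 1), and it did not pass the threshold of 0.05. Without control replicate 3 it was -2.77 with an edgeR adjusted p of 0.00891, and without both E18.5 samples numbered 3 it was -2.80 with an edgeR adjusted p of 0.0585. With no filter on low counts the E18.5 difference was called as well (-2.28, edgeR adjusted p = 0.00256), and without both samples numbered 1-2 it was -2.29 and not called (edgeR adjusted p = 0.799). The Figla effect at P0 minus that at E18.5 was -1.34 ± 0.76 (edgeR adjusted p = 0.92), and -0.86 ± 0.44 without control replicate 3 (edgeR adjusted p = 1).

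Kit was also low relative to germ cell transcripts. In each sample the mean log2 level of 8 germ cell markers (Ddx4, Dazl, Sycp3, Sycp1, Hormad1, Mael, Stk31 and Taf7l) was subtracted from the log2 level of Kit, after adding 0.5 CPM. The result was -2.51, -1.78 and -2.03 in Lhx8 knockouts, against 0.38, 0.57 and 0.55 in their controls, a difference of -2.60. It was -1.32, -1.08 and -0.27 in P0 Figla knockouts, against 1.77, 2.55 and 2.84 in controls, a difference of -3.27. Both P0 differences separated the groups fully, and each had an exact two-sided permutation p of 0.1, the smallest that 3 against 3 samples can give. At E18.5 the values were -0.34, -0.46 and -0.68 in knockouts and 1.31, -0.42 and 2.15 in controls, a difference of -1.50 (exact permutation p = 0.2) that was -2.22 without control replicate 3 and -0.94 without control replicate 4.

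The germ cell markers themselves moved in part. In Lhx8 knockouts 2 of 8 fell (Ddx4, the germ cell RNA helicase, and Sycp3, of the meiotic chromosome axis) and none rose, and the summed level was 1813 to 2572 CPM in knockouts and 1969 to 2820 CPM in controls. Of the same 8, 4 fell in P0 Figla knockouts (Ddx4, Dazl, Sycp3 and Hormad1), with sums of 1197 to 1248 CPM in knockouts and 1249 to 1618 CPM in controls. Over all genes tested, 7.29% were called lower in the Lhx8 set and 10.9% in the P0 Figla set. The log2 fold change of Ddx4 was -0.94 ± 0.16 in Lhx8 knockouts (edgeR adjusted p = 0.00559) and -0.84 ± 0.10 in P0 Figla knockouts (edgeR adjusted p = 0.000388). The median log2 fold change of the 8 markers was -0.15 in the Lhx8 set and -0.41 in the P0 Figla set. Over all genes tested it was 0.05 and 0.02. Single markers ran from -0.96 (Sycp3) to 0.21 (Hormad1) in the Lhx8 set and from -0.88 (Sycp3) to 0.33 (Taf7l) in the Figla set. The part of germ cell number in the Kit difference was not tested.

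KIT is also made by mast cells, melanocytes and blood progenitors. Of the mast cell markers, 0 of 5 tested passed in Lhx8 knockouts, beside 10.4% of all genes. The list summed to 120, 696 and 130 CPM in those knockouts and 106 to 174 CPM in their controls. In P0 Figla knockouts 4 of 7 rose (Cpa3, Mcpt4, Tpsb2 and Hdc), beside 5.12% of all genes called higher. There the list summed to 234 to 513 CPM in knockouts and 188 to 271 CPM in controls. Tyrp1, a pigment cell enzyme, had 0 counts in 5 of the 6 groups and 5 counts in P0 Figla knockouts. The melanocyte sums were 17.6 to 21.5 CPM in Lhx8 knockouts and 20.6 to 22.7 CPM in their controls, and 13.6 to 17.5 CPM in P0 Figla knockouts and 12.5 to 17.4 CPM in controls, nearly all from Mitf and Pmel. Erythroid markers varied among samples of a group, from 31.9 to 223 CPM in P0 Figla knockouts and from 24.5 to 522 CPM in controls. Of these, 0 of 7 passed, beside 16.0% of all genes. The part of mast cells, melanocytes or blood cells in the Kit difference was not tested.

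Kitl transcripts rose in both knockouts at P0. Kitl (ENSMUSG00000019966; plus strand, chr10:100015630-100100413) encodes the ligand, also called stem cell factor. It was at 309, 283 and 263 CPM in Lhx8 knockouts and at 156, 160 and 149 CPM in their controls. The P0 Figla knockouts held 665, 833 and 900 CPM, against 414, 545 and 425 CPM in controls. The groups did not overlap in either set. The log2 fold change was 0.88 ± 0.12 in the Lhx8 set (n = 3 each; 1.84-fold higher; edgeR adjusted p = 0.00175) and 0.79 ± 0.14 in the Figla set (1.73-fold higher; edgeR adjusted p = 0.00412). The difference between these effects was 0.07 ± 0.20 (edgeR adjusted p = 0.962).

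At E18.5 Kitl was at 918, 860 and 773 CPM in Figla knockouts and at 701, 762 and 595 CPM in controls. Every knockout sample lay above every control, which was true in one direction or the other of 7.45% of the 16131 genes tested, and the log2 fold change of 0.32 ± 0.17 did not pass (edgeR adjusted p = 1; 0.42 ± 0.19 without control replicate 3, edgeR adjusted p = 0.935). The effect at P0 minus that at E18.5 was 0.48 ± 0.22 for Kitl (unadjusted p = 0.052, edgeR adjusted p = 0.913; 0.40 ± 0.24 without control replicate 3).

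Pregranulosa cells are a source of Kitl, and their 10 markers were read beside it. In Lhx8 knockouts 0 of 9 tested passed, with sums of 1739 to 2012 CPM in knockouts and 1573 to 1730 CPM in controls. Follistatin (Fst) was the 1 of 10 that rose in P0 Figla knockouts (log2 fold change 0.87 ± 0.20, edgeR adjusted p = 0.0146), with sums of 2278 to 2897 CPM in knockouts and 1679 to 2222 CPM in controls. Over all genes tested, 10.4% were called in the Lhx8 set and 5.12% were called higher in the P0 Figla set. The median log2 change of the pregranulosa list was 0.22 in the Lhx8 set and 0.35 in the Figla set. Over all genes tested it was 0.05 and 0.02. Marker lists of other somatic cells had higher medians in the same sets. These were 0.40 and 0.49 for stroma, 0.41 and 0.56 for endothelium, and 0.40 and 0.46 for macrophages. The part of any of these cells in the Kitl difference was not tested.

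The ratio of ligand to receptor transcripts combined both changes. Kitl CPM divided by Kit CPM was 18.2, 8.24 and 11 in Lhx8 knockouts and 0.915, 0.775 and 0.940 in their controls. It was 14.2, 15.3 and 9.30 in P0 Figla knockouts, against 0.702, 0.707 and 0.369 in controls. Kit CPM exceeded Kitl CPM in all 6 P0 control samples, and Kitl CPM exceeded Kit CPM in all 6 P0 knockout samples. This scale is not corrected for transcript length. Per kilobase of exon, P0 Figla controls held Kit at 66.1, 86.5 and 129 CPM and Kitl at 71.8, 94.5 and 73.8 CPM. Kitl was thus above Kit in control replicates 1 and 2 and below it in replicate 3. In P0 Figla knockouts Kitl stayed above Kit per kilobase. At E18.5 the ratio was 11.9, 13.0 and 14.3 in knockouts and 1.81, 11.5 and 1.11 in controls, with control replicate 3 again beside the knockouts.

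**Figure D2:**
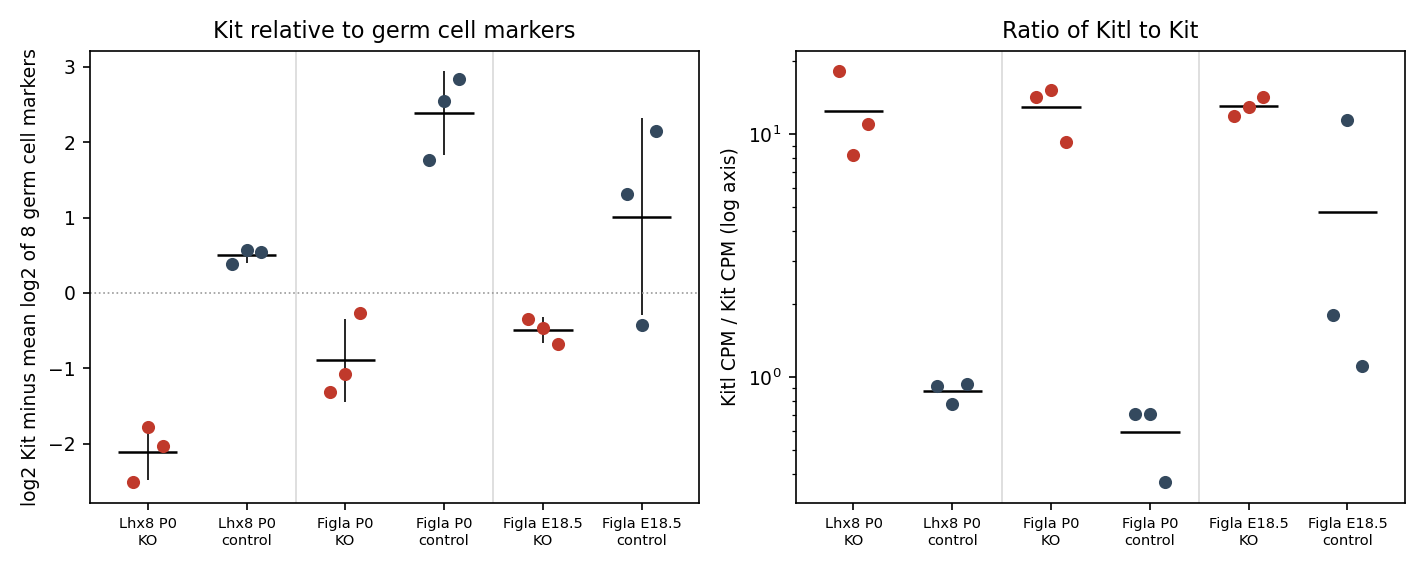
Left, log2 Kit CPM minus the mean log2 CPM of 8 germ cell markers in each sample; right, Kitl CPM divided by Kit CPM on a logarithmic axis; knockouts in red, controls in dark, lines at group means with ± 1 SD on the left. At P0 the ratio was 8.24 to 18.2 in Lhx8 knockouts and 0.775 to 0.940 in their controls, and no knockout sample overlapped a control.

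Foxo3 fell in Lhx8 knockouts. Foxo3 (ENSMUSG00000048756; minus strand, chr10:42181841-42276755) encodes the transcription factor that holds mouse primordial oocytes dormant. It was at 161, 224 and 208 CPM in Lhx8 knockouts and at 386, 329 and 331 CPM in their controls, which did not overlap. The log2 fold change was -0.82 ± 0.15 (n = 3 each; 1.76-fold lower; edgeR adjusted p = 0.00845). Foxo3 in P0 Figla knockouts was at 496, 511 and 494 CPM, against 568, 628 and 770 CPM in controls, and the log2 fold change of -0.39 ± 0.12 did not pass (edgeR adjusted p = 0.0505). That value was at the threshold: it passed with no filter on low counts (edgeR adjusted p = 0.0111), without P0 control replicate 1 (0.0254) and in DESeq2 (0.0274), and over 11 alternatives the adjusted p ran between 0.0111 and 0.379. The Lhx8 effect minus the Figla effect on Foxo3 was -0.44 ± 0.20 (edgeR adjusted p = 0.611). At E18.5 the knockouts had 304, 372 and 537 CPM and the controls 418, 287 and 570 CPM, so the groups overlapped, and the log2 fold change was -0.05 ± 0.29 (-0.26 ± 0.28 without control replicate 3).

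Pdpk1 (ENSMUSG00000024122; minus strand, chr17:24073680-24150924), the kinase that activates AKT, fell slightly in P0 Figla knockouts. It was at 140, 152 and 143 CPM in those knockouts and at 167, 205 and 199 CPM in controls, a log2 fold change of -0.39 ± 0.10 (n = 3 each; edgeR adjusted p = 0.031). The call was lost without control replicate 2 (edgeR adjusted p = 0.0858) or control replicate 3 (0.0940), and without knockout replicate 1 (0.0920), 2 (0.0701) or 3 (0.142), as well as in 1 model of all Figla groups (0.208) and from libraries with agreeing labels (0.133). In Lhx8 knockouts Pdpk1 was at 67.6, 71.4 and 69.2 CPM, against 76.0, 83.7 and 78.4 CPM in controls, with no overlap but a log2 fold change of -0.19 that did not pass (edgeR adjusted p = 0.328). At E18.5 it was at 103, 181 and 164 CPM in knockouts and 164, 182 and 177 CPM in controls, with overlap.

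The other 5 genes did not pass in any comparison of a knockout with its controls. Akt1 (ENSMUSG00000001729; minus strand, chr12:112653821-112674884), the kinase downstream of PI3-kinase, was at 308, 214 and 203 CPM in Lhx8 knockouts and 165, 183 and 185 CPM in their controls (log2 fold change 0.44 ± 0.17, edgeR adjusted p = 0.123). Akt1 in P0 Figla knockouts was at 336, 314 and 348 CPM and in controls at 278, 299 and 295 CPM (0.19 ± 0.09, edgeR adjusted p = 0.182). Its groups did not overlap in either set, although the test was not passed. Cdkn1b (ENSMUSG00000003031; plus strand, chr6:134920401-134925513), which encodes the cell cycle inhibitor p27, was at 249, 270 and 236 CPM in Lhx8 knockouts and 193, 199 and 200 CPM in their controls (0.35 ± 0.12, edgeR adjusted p = 0.0936). Cdkn1b in P0 Figla knockouts was at 296, 245 and 252 CPM, against 250, 289 and 215 CPM in controls, and the groups overlapped.

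Pik3ca (ENSMUSG00000027665; plus strand, chr3:32397671-32468486), the alpha catalytic subunit of PI3-kinase, was at 80.3, 62.4 and 52.3 CPM in Lhx8 knockouts and 50.4, 59.9 and 52.6 CPM in their controls. Pik3ca in P0 Figla knockouts was at 129, 134 and 117 CPM, against 129, 120 and 110 CPM in controls. Tsc1 (ENSMUSG00000026812; plus strand, chr2:28641228-28691167), of the complex that restrains mTORC1, was at 52.1, 63.3 and 66.0 CPM in Lhx8 knockouts, below the 72.2, 77.7 and 66.3 CPM of their controls by a margin that did not pass (edgeR adjusted p = 0.271). In P0 Figla knockouts Tsc1 was at 160, 144 and 145 CPM, against 152, 135 and 148 CPM in controls. Tsc2 (ENSMUSG00000002496; minus strand, chr17:24595937-24632629), its partner, was at 33.3, 36.3 and 38.6 CPM in Lhx8 knockouts and 36.2, 31.6 and 30.9 CPM in controls, and at 208, 202 and 213 CPM in P0 Figla knockouts and 206, 204 and 207 CPM in controls. Of the exon bases of Tsc2, 578 (9.6%) are overlapped by Pkd1 on the opposite strand, and counting ignored strand, so reads there cannot be assigned. The other 8 genes have no exon overlap in the annotation.

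At E18.5 these 5 genes and Pdpk1 had log2 fold changes between -0.22 and 0.11 (between -0.17 and 0.23 without control replicate 3), with the groups overlapping for each, as the levels of Tsc1 show: 138, 146 and 142 CPM in knockouts and 141, 142 and 144 CPM in controls.

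**Figure D3:**
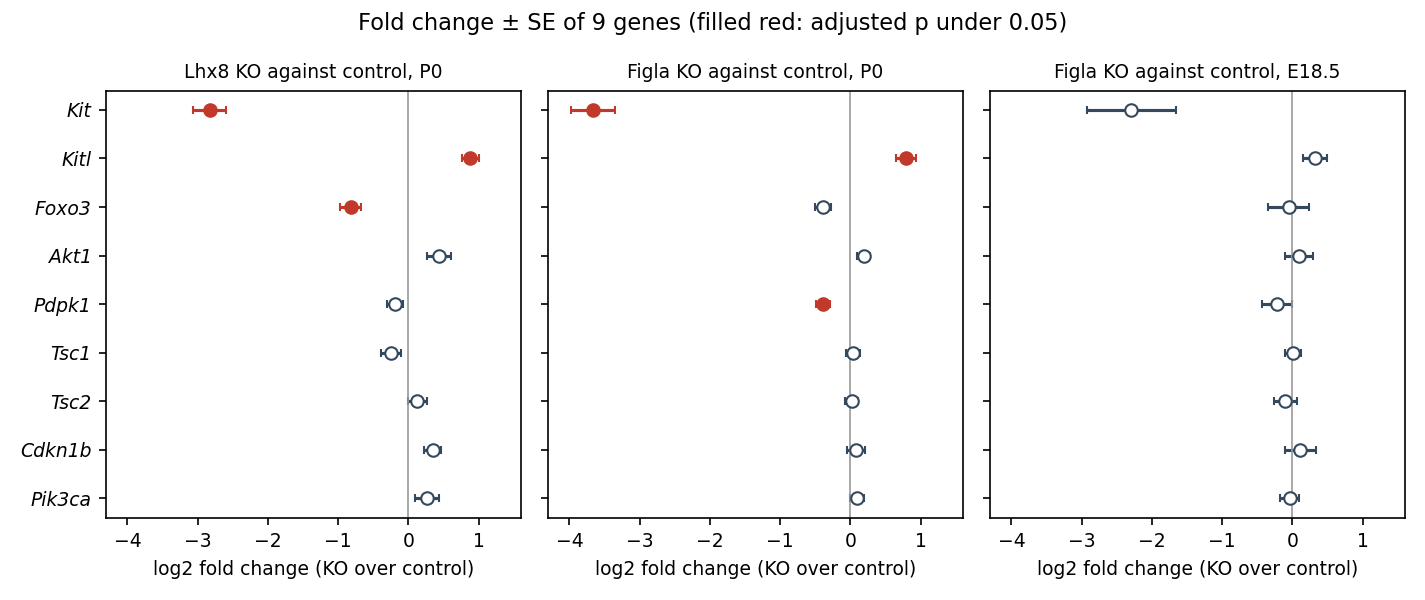
Log2 fold change, knockout over control, with ± 1 SE (horizontal axis) for the 9 genes in the Lhx8 P0, Figla P0 and Figla E18.5 comparisons; filled red points have an edgeR adjusted p under 0.05. Kit stood at -2.83, -3.66 and -2.29 in these comparisons, and its points at P0 are filled while that at E18.5 is open.

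In all, 3 of the 9 genes were called in Lhx8 knockouts (Kitl higher, Kit and Foxo3 lower) and 3 of 9 in P0 Figla knockouts (Kitl higher, Kit and Pdpk1 lower). Over all genes tested the share called was 10.4% in the Lhx8 set (3.06% higher and 7.29% lower) and 16.0% in the P0 Figla set (5.12% higher and 10.9% lower). Groups did not overlap for 7 of 9 genes in the Lhx8 set, beside 33.7% of all genes tested, and for 5 of 9 in the P0 Figla set, beside 35.6%. At E18.5, 0 of 9 were called by edgeR, beside 0.00620% of all genes (1 of 16131 at the adjusted threshold, 607 at an unadjusted p under 0.05, and 78 in DESeq2). The median log2 fold change of the 9 genes was 0.13 in the Lhx8 set and 0.04 in the P0 Figla set, against 0.05 and 0.02 over all genes tested.

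Levels between genes were compared per length in the Figla set, as CPM per kilobase of exon (RPKM); the 3' kit of the Lhx8 set does not allow this. In P0 Figla knockouts Kitl was highest at 139 ± 21.0 RPKM, followed by Akt1 at 81.1 ± 4.18, Foxo3 at 66.1 ± 1.24, Cdkn1b at 58.1 ± 6.14 and Tsc2 at 34.5 ± 0.921 RPKM (mean ± SD, n = 3). Pik3ca at 14.0 ± 0.951, Pdpk1 at 13.3 ± 0.560 and Tsc1 at 12.6 ± 0.743 RPKM lay within each other's spread, and Kit was lowest at 7.41 ± 3.02 RPKM. In P0 controls Kit had the highest mean instead, at 94.0 ± 32.2 RPKM, within its spread of Foxo3 at 86.5 ± 13.7, Kitl at 80.0 ± 12.6 and Akt1 at 71.0 ± 2.78 RPKM. Kit was highest only in control replicate 3, at 129 RPKM. In replicate 1 Kit, at 66.1 RPKM, lay below Foxo3 at 75, Kitl at 71.8 and Akt1 at 67.8 RPKM. In replicate 2 Kit, at 86.5 RPKM, lay below Kitl at 94.5 RPKM. The lower end in controls was again Pdpk1, Pik3ca and Tsc1, at 17.4 ± 1.85, 13.2 ± 1.06 and 12.3 ± 0.767 RPKM.

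In Figla+/- controls, P0 ovaries were set against E18.5 ovaries to follow the genes with age. Kit averaged 837 ± 287 CPM at P0 and 330 ± 240 CPM at E18.5 (SD, n = 3 each), and Kitl 461 ± 72.4 CPM at P0 and 686 ± 84.1 CPM at E18.5. The log2 differences were 1.34 ± 0.54 for Kit (edgeR adjusted p = 0.163), -0.57 ± 0.16 for Kitl (0.0771) and 0.62 ± 0.24 for Foxo3 (0.154). None of the 9 genes passed in edgeR with the filter on low counts, which called 0 of 18379 genes in this contrast (4254 at an unadjusted p under 0.05), while DESeq2 called 1584 genes, Kitl among them (adjusted p = 0.0193). The calls changed with the settings in edgeR too: with no filter on low counts Kit (1.40, edgeR adjusted p = 0.0027) and Foxo3 (0.68, edgeR adjusted p = 0.0214) passed, and with the summed libraries kept apart Kitl passed (-0.59, edgeR adjusted p = 0.025). Without E18.5 control replicate 3 the Kit difference was 0.86 and the Kitl difference -0.49. In Figla knockouts Kit was at 66.0 ± 26.9 CPM at P0 and 65.9 ± 11.7 CPM at E18.5, and Kitl at 799 ± 121 CPM at P0 and 850 ± 73.4 CPM at E18.5.

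The genes around these 9 in the pathway were read in 4 lists. Beside their counts, 3.06% of all genes tested were called higher and 7.29% lower in the Lhx8 set. In the P0 Figla set these shares were 5.12% and 10.9%. Of the Kit receptor signalling genes other than the 9, 1 of 22 tested rose and 3 fell in Lhx8 knockouts, and 2 of 23 rose and 3 fell in P0 Figla knockouts. Pik3cd, the delta catalytic subunit of PI3-kinase, fell furthest in both. It was at 6.83, 9.20 and 5.83 CPM in Lhx8 knockouts and at 61.0, 82.8 and 52.6 CPM in their controls (log2 fold change -3.16 ± 0.23, edgeR adjusted p = 4.31e-05). It was at 10.4, 11 and 11.7 CPM in P0 Figla knockouts and at 34.9, 51.6 and 45.4 CPM in controls (-1.99 ± 0.17, edgeR adjusted p = 2.73e-05). Pik3cd was thus lower in every knockout sample than in every control of its set, whereas the alpha subunit gene Pik3ca overlapped between groups in the same samples.

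Pik3cb, the beta catalytic subunit, was at 4.68, 4.60 and 3.35 CPM in Lhx8 knockouts and 9.41, 13.0 and 12.3 CPM in their controls (-1.45 ± 0.26, edgeR adjusted p = 0.00703), and at 23.4, 15 and 18.4 CPM in P0 Figla knockouts and 35.6, 30.6 and 30.1 CPM in controls (-0.76 ± 0.17, edgeR adjusted p = 0.0135). Pik3r3, a regulatory subunit, rose instead: 104, 137 and 161 CPM in Lhx8 knockouts and 97.6, 71.0 and 58.0 CPM in their controls (0.83 ± 0.21, edgeR adjusted p = 0.0367), and 203, 249 and 219 CPM in P0 Figla knockouts and 109, 118 and 86.4 CPM in controls (1.10 ± 0.13, edgeR adjusted p = 0.000366). The members of this list that moved were thus mostly PI3-kinase subunits, in opposite directions. Adaptor Shc1 rose in P0 Figla knockouts (log2 fold change 0.41) and the MAP kinase kinase Map2k2 fell in Lhx8 knockouts (-0.52).

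Among the brakes on PI3-kinase and the AKT branch, 0 of 16 rose and 1 fell in Lhx8 knockouts, and 1 rose and 1 fell in P0 Figla knockouts (Irs1, an insulin receptor substrate, and Phlpp1, an AKT phosphatase, -0.55). Of the mTORC1 genes, 0 of 16 rose and 2 fell in Lhx8 knockouts (Eif4ebp1, -0.66, and Eif4e, -0.58, of cap-dependent translation). In P0 Figla knockouts 0 of 16 rose and 5 fell (Rptor, -0.47, the mTORC1 scaffold, with Deptor, Tbc1d7, Eif4ebp1 and Eif4e). Over all genes tested, 7.29% were called lower in the Lhx8 set and 10.9% in the P0 Figla set. The mTORC1 list's median log2 fold change was -0.06 in both sets, beside 0.05 and 0.02 over all genes tested. Deptor and Tbc1d7 are known as inhibitors of mTORC1 signalling and Rptor as a subunit it needs, so the genes that fell do not share 1 role.

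The FOXO target genes that were called at P0 were all higher in knockouts. In Lhx8 knockouts 3 of 15 tested rose and 0 fell: Cdkn1a, the cell cycle inhibitor p21 (log2 fold change 0.79), Gadd45b, a stress-induced gene (1.77), and Txnip, the thioredoxin inhibitor (1.40). Txnip was at 134, 125 and 125 CPM in Lhx8 knockouts and 31.4, 68.3 and 45.3 CPM in their controls. In P0 Figla knockouts 6 of 15 rose and 0 fell: Fbxo32 (1.11), Gadd45b (0.76), Sesn3 (0.50), Txnip, Ccng2 and Bcl2l11. Txnip, Ccng2 and Bcl2l11 passed at an edgeR adjusted p of 0.0371, 0.0325 and 0.0333. Fbxo32, a ubiquitin ligase gene known from muscle atrophy, was at 19.4, 16.6 and 19.4 CPM in P0 Figla knockouts and 11, 7.01 and 7.59 CPM in controls. Of all genes tested, 3.06% were called higher in Lhx8 knockouts and 5.12% in P0 Figla knockouts. The list was chosen with earlier results of these data known, so setting it beside these shares is a description and no independent test. The list's median log2 fold change was 0.44 in the Lhx8 set and 0.29 in the P0 Figla set, beside 0.05 and 0.02 over all genes tested. At E18.5 the list's median was 0.36, beside 0.01 over all genes, with 0 of 15 called. Many cell types express these genes: stroma markers rose in 3 of 7 cases in Lhx8 knockouts (summed CPM 4452 to 5039 in knockouts, 3015 to 3447 in controls) and in 5 of 7 in P0 Figla knockouts (3704 to 4262 in knockouts, 2692 to 3240 in controls), and endothelial markers in 4 of 6 in P0 Figla knockouts (437 to 502 in knockouts, 259 to 369 in controls); the part of these cells was not tested.

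Over the 4 lists together, 10 of 69 genes tested were called in Lhx8 knockouts and 18 of 70 in P0 Figla knockouts, beside 10.4% and 16.0% of all genes. Several calls were lost when 1 sample was left out, which also leaves fewer samples to test. The Lhx8 count was 5 without control replicate 1 or 2 and 6 without control replicate 3. Over all genes the calls in the Lhx8 set fell from 1582 to 733, 630 and 911 without control replicates 1, 2 and 3. Among the genes named, edgeR's adjusted p for Pik3r3 went past the threshold without control replicate 2 (0.141) or 3 (0.124) or knockout replicate 2 (0.0789) or 3 (0.0881). The call of Eif4e was lost without control replicate 1 (0.0802), 2 (0.112) or 3 (0.0827) or knockout replicate 3 (0.0604), and that of Map2k2 without control replicate 1 (0.113), 2 (0.112) or 3 (0.0701). Cdkn1a was lost without control replicate 1 (0.0619) or 2 (0.0602), and Eif4ebp1 without control replicate 1 (0.0545) or 3 (0.0623). The P0 Figla count of list genes was 11 without control replicate 3 or knockout replicate 1, 8 without knockout replicate 2 and 6 without knockout replicate 3. Over all genes the calls in P0 Figla knockouts fell from 2767 to 1605 without knockout replicate 2 and to 1423 without knockout replicate 3. Without knockout replicate 3 the calls of Gadd45b (edgeR adjusted p = 0.0552), Phlpp1 (0.0562), Pik3cb (0.0566), Sesn3 (0.0566), Eif4ebp1 (0.0773) and Shc1 (0.0999) were lost. Without knockout replicate 1 those of Rptor (edgeR adjusted p = 0.0518), Shc1 (0.0608) and Sesn3 (0.0641) were lost, and without knockout replicate 2 those of Pik3cb (0.0560), Rptor (0.0599) and Eif4ebp1 (0.0681). Shc1 was also lost without control replicate 1 (0.0560) and Eif4ebp1 without control replicate 3 (0.0572). Pik3cd, Gadd45b, Txnip and Pik3cb passed in 10 of 10 alternatives in the Lhx8 set, and Pik3cd, Pik3r3 and Fbxo32 in 11 of 11 in the Figla set. At E18.5, 0 of 70 list genes were called by edgeR.

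**Figure D4:**
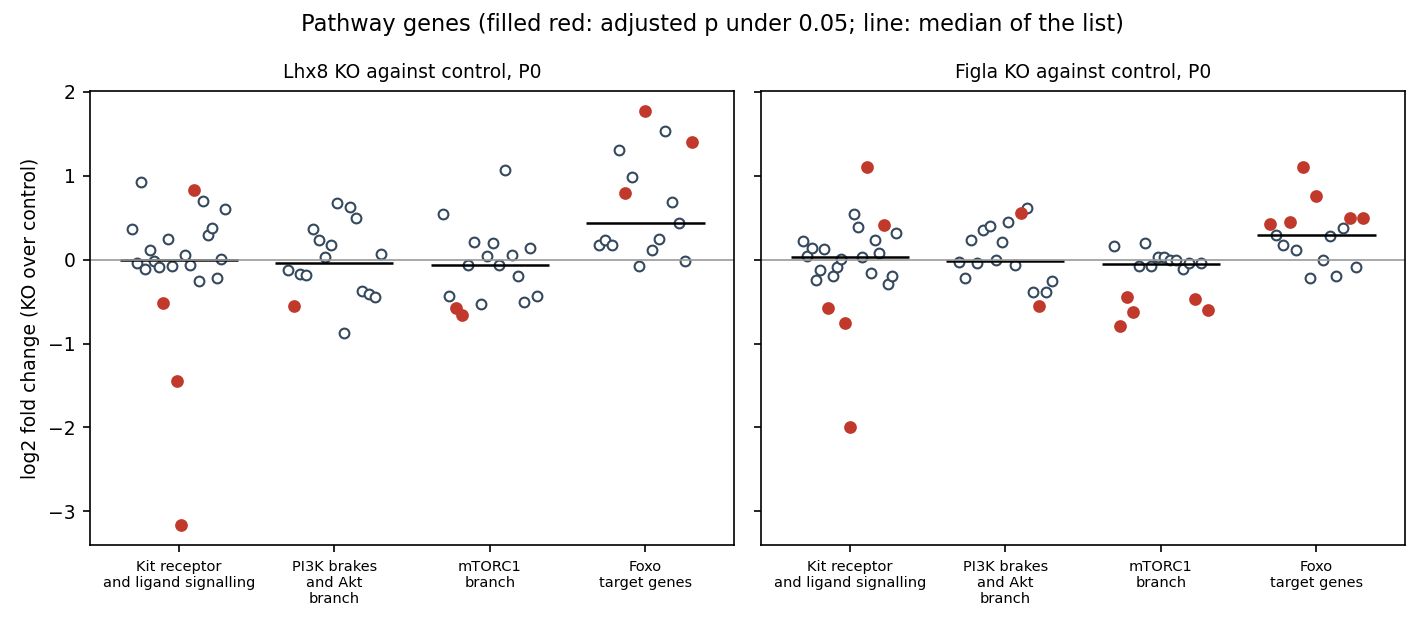
Log2 fold change, knockout over control (vertical axis), of each tested gene in 4 pathway lists in the Lhx8 P0 and Figla P0 comparisons; filled red points have an edgeR adjusted p under 0.05 and lines are list medians. The FOXO target medians were 0.44 in the Lhx8 set and 0.29 in the Figla set, and the lowest point in each panel is Pik3cd.

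The genes whose pattern was most like that of Kit were found by the root mean square difference of log2 CPM, centred within each set, over 18 samples and 10367 genes. Kdm1b, a histone demethylase that mouse oocytes need for maternal imprints, was nearest at 0.244, followed by Gdpd1 at 0.259, Prdm16, a transcriptional regulator, at 0.389, Arfgef3 at 0.400 and Marveld2, a tight junction protein gene, at 0.431; the median over all genes was 1.62. As a description with no test, Kdm1b had log2 fold changes of -2.74 in Lhx8 knockouts, -3.61 in P0 Figla knockouts and -2.22 in E18.5 Figla knockouts. Nearest to Kitl were L3hypdh at 0.161, Zmat1 at 0.164 and Chst11, a chondroitin sulfotransferase gene, at 0.165, against a median of 0.472.

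FIGLA is a basic helix-loop-helix protein, a class that binds E-boxes (CANNTG), so the windows around the start sites of the genes called in P0 Figla knockouts were searched on both strands. RefSeq start-site windows of GRCm38.p6, with 250 bases before and 50 after the start, were found for 9 of 9 genes. Kit and Kitl each held 1 E-box in the window, and Pdpk1 held 2 at the start site listed first and 0 at the other. The sequences show each match in capitals within 30 bases, on the gene's strand. Distances after the start count the start base itself as 1.
Kit, chr5:75574983-75575012, plus strand, first base of the match 9 bases after the RefSeq start: ccgcgctcggtgCACTTGggcgagagctgt
Kitl, chr10:100015819-100015848, plus strand, first base of the match 11 bases after the RefSeq start: cagccggggcttCATTTGctgtctgtcacc
Pdpk1, chr17:24151135-24151164, minus strand, first base of the match at -230 from the RefSeq start: tatttaacagtcCAGATGtgccacatcggt
Pdpk1, chr17:24151041-24151070, minus strand, first base of the match at -136 from the RefSeq start: aacagggtgaacCATGTGcagctagtgttg
Of 32851 windows of the same length, 72.3% held an E-box. Of the genes not called in P0 Figla knockouts, Tsc2 held 2, Tsc1 held 1, and Foxo3, Cdkn1b and Pik3ca held 0. Akt1 held 1 at the start site listed first and 0 at the other. TAATTA, a core read by many homeodomain proteins, the class of LHX8, matched in 5.29% of all windows and in none of the windows of these 9 genes. These matches are letters in a window and show no binding.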

How the data were processed

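The authors deposited 1 table per library of whole-number counts of reads per gene, not normalized. Per the file headers, reads were assigned by featureCounts 1.6.0, without regard to strand, to genes of GENCODE M12, and the submitters' processing notes name cutadapt, HISAT2 and GRCm38.p5. Symbols were matched to 49326 of 49585 gene IDs. Per the labels' protocols, Lhx8 libraries used a 3' kit, so their counts do not scale with transcript length, and Figla libraries a transposase kit on whole cDNA.

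Counts were fitted in edgeR 4.0.16 (R 4.3.3): filterByExpr (minimum count 10, total 15), TMM, quasi-likelihood tests and Benjamini-Hochberg adjustment over all genes tested, with a threshold of 0.05. Each comparison of a knockout with its controls used only its groups; interactions and ages used 1 model of the groups concerned. SE is the log2 fold change divided by the square root of F. Libraries of a group with a chi-square per degree of freedom under 2, over genes with 50 counts or more, were summed. Figla replicate numbers follow deposition order and only name samples. Single values were tested by exact permutation in Python 3.11.15 with scipy 1.17.1. Alternatives were RLE scaling, no filter, DESeq2 1.42.0, leaving out each sample, each library as its own sample, a joint model, libraries with agreeing labels, a replicate block and another pseudocount.

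The 9 genes, the pathway lists and the markers were chosen with earlier results of these data known. Named genes were all 9, up to 10 list genes per comparison with the lowest adjusted p, Figla and Lhx8, and the nearest 5 genes to Kit and 3 to Kitl with a mean of 5 CPM in each set; other names are list members chosen after their values were seen. Some list genes are counted but not reported here by name.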

Additional observations from a re-analysis of the deposited data

How the results depend on the processing

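At P0, Kit and Kitl kept their direction and their call in 10 of 10 alternatives in the Lhx8 set and 11 of 11 in the Figla set, and Foxo3 in 10 of 10 in the Lhx8 set. Pdpk1 was called in 4 of 11 in the Figla set. Over alternatives the Kit log2 fold change lay between -3.14 and -2.61 in the Lhx8 set and between -4.05 and -3.18 in the Figla set. Counting depth did not limit Kit, which summed to 703 counts over the Lhx8 knockouts and 2164 over the P0 Figla knockouts. Limits are the 3 samples per group, the conflict between library names and titles, and 3' counting in the Lhx8 set.

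For Lhx8 samples with the same number in the library names, correlations of deviations from the group means were -0.154, 0.0471 and 0.0381. They were -0.167 to 0.127 for samples of unlike number, so 3 pairs could not show whether the numbers pair the samples. With the replicate block 931 genes were called, against 1582 without it, among them 6 list genes and 3 of the 9 genes. No paired analysis of the Figla groups was run, because their library names carry no shared replicate number. No block was fitted for the E18.5 samples 1-2, which stood apart in both groups. The E18.5 tests therefore count the difference between samples 1-2 and the others as spread within a group. With no filter on low counts 2682 genes were called in the Lhx8 set, without 1 sample 630 to 1490, and 5 to 14 list genes. In P0 Figla knockouts 1363 genes and 6 list genes were called in 1 model of all Figla groups, 1835 and 10 from libraries with agreeing labels, and 1423 to 2882 and 6 to 17 without 1 sample, with 2 to 4 of the 9 genes.

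At E18.5, where 1 gene was called, 229 were called with no filter (1 of the 9 genes), 78 in DESeq2, 34 with the summed libraries kept apart, 18 without both samples numbered 3, 24 without both numbered 1-2, 53 in the joint model and 0 to 89 without 1 sample (0 to 1 of the 9 genes). The effect at P0 minus that at E18.5 gave 63 genes with no filter, 3 in DESeq2 and 1 without both E18.5 samples numbered 1-2. P0 against E18.5 in controls gave 1252 genes with no filter (2 of the 9, Kit and Foxo3; 9 list genes), 1584 in DESeq2 (1 and 6), 1490 with the summed libraries kept apart (1 and 6), 337 without both E18.5 samples numbered 1-2 (1 list gene), and 0 to 556 genes and 0 to 3 list genes without 1 sample. The Lhx8 minus Figla effect gave 340 genes with no filter (1 of the 9, Kit, adjusted p = 0.0129; 3 list genes), 150 in DESeq2 (2 list genes) and 41 to 106 without 1 sample.

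Signs turned, among the 9 genes and the list genes named, only for log2 values that were not called. Without 1 sample at E18.5 the ranges were -0.32 to 0.20 for Foxo3, -0.09 to 0.23 for Akt1, -0.01 to 0.03 for Tsc1, -0.09 to 0.27 for Cdkn1b and -0.11 to 0.02 for Pik3ca. In P0 Figla knockouts they were -0.01 to 0.08 for Tsc1, -0.00 to 0.04 for Tsc2 and -0.01 to 0.18 for Cdkn1b, which was -0.12 with agreeing labels. Tsc1 at E18.5 was -0.01 without both samples numbered 3, -0.01 when the summed libraries were kept apart, and -0.00 in the joint model. Without both samples numbered 1-2, Foxo3 was 0.10 and Akt1 -0.01 at E18.5, Cdkn1b 0.02 for the effect at P0 minus that at E18.5, and Akt1 -0.04 and Cdkn1b 0.10 for P0 against E18.5 in controls. For the effect at P0 minus that at E18.5 the ranges were -0.00 to 0.30 for Akt1, -0.37 to 0.00 for Pdpk1, -0.06 to 0.08 for Tsc1 and -0.18 to 0.18 for Cdkn1b, which was 0.01 without both samples numbered 3. For P0 against E18.5 in controls they were -0.04 to 0.25 for Akt1, -0.00 to 0.11 for Tsc1 and -0.21 to 0.10 for Cdkn1b, and for the Lhx8 minus Figla effect -0.06 to 0.15 for Kitl and -0.02 to 0.30 for Pik3ca. The alternatives without both E18.5 samples numbered 1-2, and without both numbered 3 in the age and difference contrasts, were chosen after seeing the data. The causes of these changes were not tested.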

Other observations

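The FOXO target Gadd45b was at 220, 9.91 and 16.2 CPM in E18.5 Figla knockouts and at 104, 9.10 and 9.90 CPM in controls, so in each group the sample summed from replicates 1 and 2 stood far above the others. At P0 the samples of a group lay close together: Gadd45b was at 21.1, 18.9 and 20.2 CPM in Lhx8 knockouts and 4.81, 6.77 and 6.07 CPM in their controls, and at 19.1, 23.4 and 23.7 CPM in Figla knockouts and 12.1, 12.7 and 14.2 CPM in controls.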
